A study of Mus musculus with 2 samples.

Results

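The genes of the platelet-derived growth factor (PDGF) system were read in cells from scaffolds that had filled a skull defect in mice. The members were the rows with the symbols Pdgfa, Pdgfb, Pdgfc, Pdgfra and Pdgfrb, which are 5 of the 32285 genes counted, and all 5 were found. The mice were female Balb/c, aged 6 weeks, and each carried a circular cranial defect of 3.5 mm that held an acellular scaffold, Gel100 in one group and Gel50_CS50 in the other. The sources used here do not explain these 2 names. Cells were collected at week 1, those of 5 mice were pooled per scaffold, and viable cells were sorted before loading on a 10x Chromium controller (3′ v3 kit), so each scaffold is 1 library. A difference between the scaffolds therefore has no replicate check and no test. Intervals below cover counting error only and leave out the variation between animals.

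PDGF ligands are secreted dimers that act on the receptor tyrosine kinases PDGFRα and PDGFRβ. PDGF-A and PDGF-C act chiefly on PDGFRα, PDGF-D on PDGFRβ, and PDGF-B on both receptors. In wounds and fracture sites the ligands are known as mitogens and attractants for fibroblasts, pericytes and skeletal progenitors. PDGF-B from endothelium is known to recruit pericytes to new vessels.

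After filtering, 7570 Gel100 cells and 7206 Gel50_CS50 cells remained, with medians of 12716 and 16507 unique molecular identifiers (UMIs, single counted transcripts) per cell. The libraries had 24 barcode sequences in common, of which 22 were among the kept cells. Leaving those cells out moved no log2 ratio of a member described below beyond its counting interval (stromal Pdgfa 0.06, Pdgfc −0.26, Pdgfra 0.16 and Pdgfrb 0.42, and macrophage Pdgfc 0.60). Clusters were classed by marker genes that include none of the members, and the members were left out of the genes used to cluster. The stromal class held 238 and 672 cells, macrophages and monocytes 3835 and 3698, T and NK cells 1072 and 505, plasmacytoid dendritic cells 480 and 260, conventional dendritic cells 339 and 281, and neutrophils 252 and 1143 (Gel100 first here and below). A further 361 and 263 cells with neutrophil markers stayed unnamed and are not in the neutrophil class. Pericytes and smooth muscle cells numbered 28 and 51 and endothelial cells 17 and 47, so their values rest on few cells. Pericytes and smooth muscle cells formed 1 cluster, with Rgs5, Notch3 and Myh11 among its leading genes, and were not separated. Where a value below is given for pericytes, this whole class is meant. Levels are given as CPM, the UMIs of a gene per 1000000 UMIs, summed over the cells of a class. The 9 stromal markers summed to 46517 and 48016 CPM in the stromal class and to 93.9 and 190 CPM in macrophages. The 9 pericyte and smooth muscle markers summed to 11817 and 7897 CPM in their class.

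Each member had its own order of cell classes. Pericytes held the highest Pdgfa and Pdgfrb, endothelial cells the highest Pdgfb, and stromal cells the highest Pdgfc and Pdgfra, in both libraries. This highest class stayed the same in 80 of 80 values when cells were classed in 8 other ways. UMIs were counted at the 3′ end and not per length, so levels are compared between cells for 1 gene and not between genes.

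**Figure D1:**
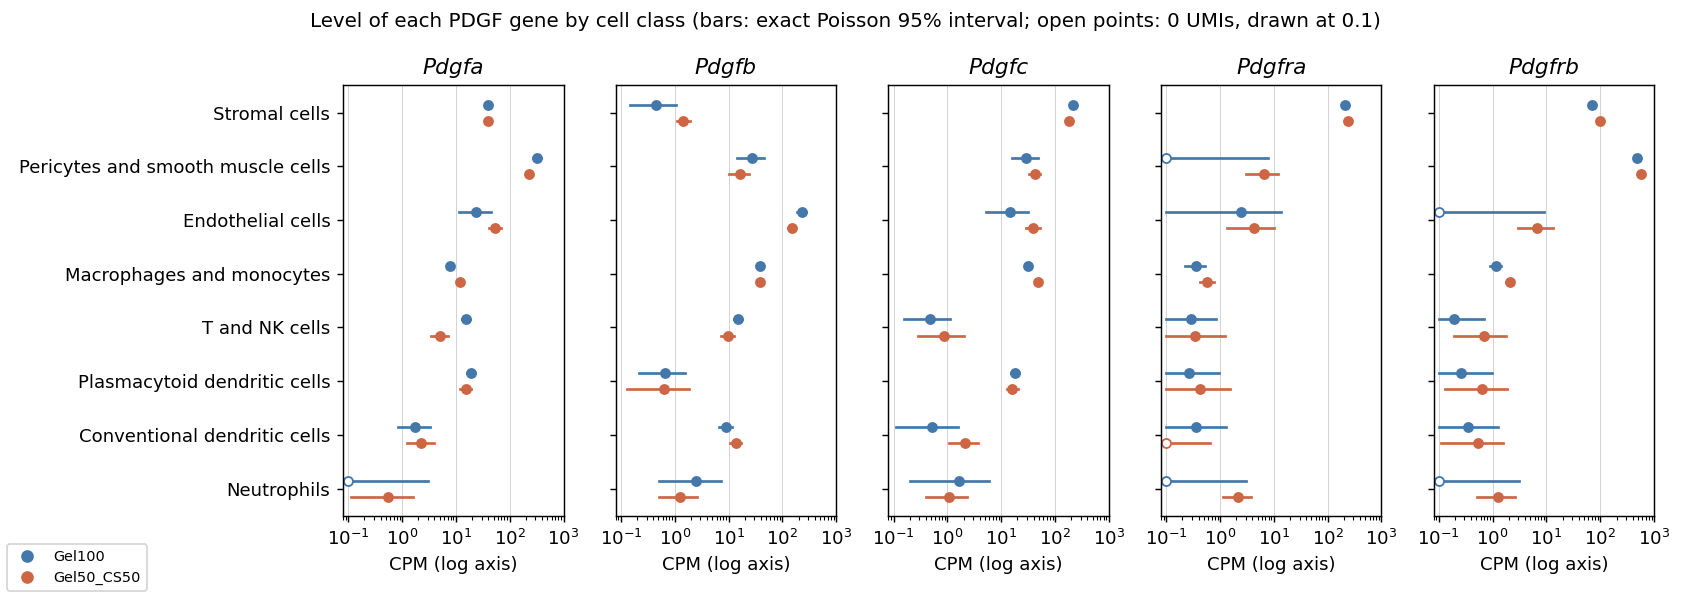
Level of each member (CPM, log axis) in 8 cell classes, with the exact Poisson 95% interval as a bar, for Gel100 (blue) and Gel50_CS50 (orange). Pdgfra lies at 214 and 243 CPM in stromal cells and at no more than 6.43 CPM in any other class, while Pdgfb is highest in endothelial cells and second highest in macrophages and monocytes.

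Pdgfa (ENSMUSG00000025856; mm10 chromosome 5, 138976014 to 138997370, minus strand) encodes the ligand PDGF-A. In pericytes and smooth muscle cells it stood at 324 CPM in Gel100 (156 UMIs; 95% interval 275 to 379) and 227 CPM in Gel50_CS50 (353 UMIs; 204 to 252). In stromal cells it stood at 39.1 CPM (430 UMIs) and 39.6 CPM (1500 UMIs), and in endothelial cells at 24.1 CPM (10 UMIs) and 54.3 CPM (64 UMIs). The pericyte level was thus 6.99 times the stromal level over the mean of both libraries, and their ranges did not overlap, whereas the stromal and endothelial ranges did. Plasmacytoid dendritic cells (18.9 and 15.5 CPM), T and NK cells (15.5 and 5.06 CPM) and macrophages (7.76 and 11.8 CPM) followed, and in this order the ranges of neighbours overlapped. Conventional dendritic cells (1.76 and 2.29 CPM) lay below the macrophage range. Neutrophils held 0 and 3 UMIs of Pdgfa.

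Pdgfb (ENSMUSG00000000489; mm10 chromosome 15, 79995874 to 80014977, minus strand) encodes PDGF-B. It was highest in endothelial cells, at 227 CPM in Gel100 (94 UMIs; 183 to 278) and 150 CPM in Gel50_CS50 (177 UMIs; 129 to 174). Macrophages and monocytes came next, at 38.1 CPM (2389 UMIs) and 37.9 CPM (2865 UMIs), a level 4.96 times lower over the mean of both libraries and with no overlap of the ranges. Pericytes (27.0 and 16.1 CPM), T and NK cells (14.9 and 9.59 CPM) and conventional dendritic cells (8.99 and 13.7 CPM) overlapped one another. Stromal cells had only 5 and 55 UMIs, or 0.455 and 1.45 CPM, although they were the most deeply sequenced of the larger classes, with medians of 46500 and 53289 UMIs per cell. Macrophages and monocytes were 50.7% and 51.3% of the kept cells and held 83.4% (82.0 to 84.8, exact Clopper-Pearson interval) and 82.7% (81.4 to 83.9) of all Pdgfb UMIs, and the few endothelial cells held 3.28% and 5.11%.

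Pdgfc (ENSMUSG00000028019; mm10 chromosome 3, 81036416 to 81214040, plus strand) encodes PDGF-C, a ligand secreted in a latent form that plasminogen activators can cleave. Stromal cells stood at 218 CPM in Gel100 (2391 UMIs; 209 to 227) and 185 CPM in Gel50_CS50 (6983 UMIs; 180 to 189). Macrophages and monocytes stood at 31.7 CPM (1986 UMIs) and 48.3 CPM (3656 UMIs), 5.03 times lower over the mean of both libraries. Pericytes (29.0 and 41.8 CPM) and endothelial cells (14.5 and 39.0 CPM) overlapped the macrophage range. Plasmacytoid dendritic cells had 18.2 and 16.1 CPM, while T and NK cells, conventional dendritic cells and neutrophils had at most 2.11 CPM. Of all Pdgfc UMIs, stromal cells held 52.1% and 64.0%, and macrophages 43.3% and 33.5%, although stromal cells were 3.14% and 9.33% of the kept cells.

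Free RNA from other cells can leave UMIs in any droplet. Pdgfc in macrophages, pericytes and endothelial cells is therefore given beside the stromal markers and Pdgfra. The summed stromal markers in macrophages reached 0.202% and 0.397% of their stromal level. Pdgfra in macrophages reached 0.164% and 0.239% of its stromal level, with 22 and 44 UMIs. Pdgfc in macrophages reached 14.6% and 26.2% of its stromal level. In pericytes the stromal markers reached 12.8% and 30.9% of their stromal level, Pdgfra 0% and 2.65%, and Pdgfc 13.3% and 22.7%. In endothelial cells the stromal markers reached 0.213% and 4.50%, Pdgfra 1.13% and 1.74%, and Pdgfc 6.66% and 21.1%. All 46 endothelial Pdgfc UMIs of Gel50_CS50 lay in 6 cells. The part of stromal RNA in the Pdgfc of macrophages, pericytes and endothelial cells was not tested. The 5 platelet markers used (Pf4 left out, since macrophages express it) summed to 4.50 and 5.01 CPM in macrophages.

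The stretch before the start of Pdgfc is shown because 2 unlike classes, stromal cells and macrophages, held most of its UMIs. The macrophage level was 5.03 times lower than the stromal level. That of Pdgfra is shown because the gene was high in stromal cells alone. Both stretches are the 250 bases upstream of a RefSeq start in GRCm38.p6, plus strand, 5′ to 3′, at chr3:81036166-81036415 and chr5:75152001-75152250. Capitals mark a CArG box, the motif that serum response factor is known to bind.
Pdgfc: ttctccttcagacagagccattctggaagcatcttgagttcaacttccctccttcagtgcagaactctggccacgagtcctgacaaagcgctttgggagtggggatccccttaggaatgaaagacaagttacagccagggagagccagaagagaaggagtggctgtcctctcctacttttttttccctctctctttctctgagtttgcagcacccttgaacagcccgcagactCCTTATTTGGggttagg
Pdgfra: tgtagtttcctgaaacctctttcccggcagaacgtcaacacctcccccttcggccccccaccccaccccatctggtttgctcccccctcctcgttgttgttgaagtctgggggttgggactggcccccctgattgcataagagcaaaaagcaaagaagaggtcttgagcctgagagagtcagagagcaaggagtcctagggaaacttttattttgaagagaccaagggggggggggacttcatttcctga
The Pdgfc stretch held 1 CArG box, which begins 17 bases before the start, and 1.47% of 32851 RefSeq promoters of the same length hold one on either strand. Neither stretch held TATAAA (12.4% of all promoters), GGGCGG (32.7%) or TGANTCA (6.75%), searched on both strands with N for any base. The 2 RefSeq entries for Pdgfa held 1 and 2 GGGCGG matches and no CArG box. These are matches of letters only. RefSeq promoter entries for Pdgfb and Pdgfrb were not used here.

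Pdgfra (ENSMUSG00000029231; mm10 chromosome 5, 75152292 to 75198215, plus strand) encodes the receptor PDGFRα, found on fibroblasts and mesenchymal progenitors. Stromal cells stood at 214 CPM in Gel100 (2352 UMIs; 206 to 223) and 243 CPM in Gel50_CS50 (9199 UMIs; 238 to 248). None of the other 7 classes read had more than 6.43 CPM in either library. Stromal cells held 98.1% and 98.9% of all Pdgfra UMIs. A Pdgfra UMI was found in 83.2% and 94.9% of stromal cells, against 0% and 1.05% of neutrophils, which should lack the gene. Their median depths differed, at 46500 and 53289 UMIs against 4029 and 4356. With each cell thinned to 3000 UMIs, the stromal shares were 44.6% and 42.3%. Pericytes had 0 UMIs in Gel100, where 3 counts would be 6.22 CPM, and 10 UMIs in 3 cells in Gel50_CS50.

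Pdgfrb (ENSMUSG00000024620) encodes PDGFRβ, the receptor of pericytes and vascular smooth muscle. Pericytes and smooth muscle cells stood at 487 CPM in Gel100 (235 UMIs; 427 to 554) and 566 CPM in Gel50_CS50 (879 UMIs; 529 to 604). Stromal cells stood at 71.4 CPM (784 UMIs; 66.5 to 76.5) and 97.1 CPM (3676 UMIs; 94.0 to 100.3), 6.25 times lower over the mean of both libraries. Stromal cells still held 71.0% and 77.4% of all Pdgfrb UMIs, and pericytes 21.3% and 18.5%. Macrophages had 72 and 158 UMIs, or 1.15 and 2.09 CPM, and 1.69% and 3.73% of them had a UMI. The neutrophil shares were 0% and 0.612%. At 3000 UMIs per cell the macrophage shares were 0.316% and 0.685% and the neutrophil shares 0% and 0.569%. The macrophage level of Pdgfrb was 1.61% and 2.15% of its stromal level, above the share found for the stromal markers. This comparison leaves out the pericytes, where Pdgfrb was higher still. The part of free RNA in the macrophage value was not tested.

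In pericytes a UMI of both Pdgfrb and Pdgfa was found in 17 of 28 Gel100 and 45 of 51 Gel50_CS50 cells. Read singly, each gene was found in 21 of the Gel100 cells, and in Gel50_CS50 Pdgfrb was found in 50 and Pdgfa in 45. Whether they met more often than these single counts give was not tested. In stromal cells both were found in 32.4% and 56.0% with all UMIs and in 0% and 4.23% at 3000 UMIs per cell. In pericytes at 3000 UMIs per cell both were found in 9 of 18 and 15 of 51 cells. The stromal markers in this class summed to 5960 CPM in Gel100 and 14842 CPM in Gel50_CS50, and their part in the pericyte values was not tested.

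Most stromal cells carried transcripts of both receptors when all UMIs were read. Both were found in 60.9% and 84.7% of stromal cells, Pdgfra alone in 22.3% and 10.3%, and Pdgfrb alone in 3.78% and 2.83%. At 3000 UMIs per cell, both were found in 6.57% and 8.91%, Pdgfra alone in 38.0% and 33.4%, and Pdgfrb alone in 12.2% and 15.9%. The share with both receptors was the higher one in Gel50_CS50 at either depth. At 3000 UMIs it rested on only 14 of 213 and 59 of 662 cells, and that difference was not tested. Most cells at this depth lacked a UMI of 1 or both receptors. In pericytes, Pdgfrb without Pdgfra was found in 75.0% and 92.2% of cells with all UMIs.

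**Figure D2:**
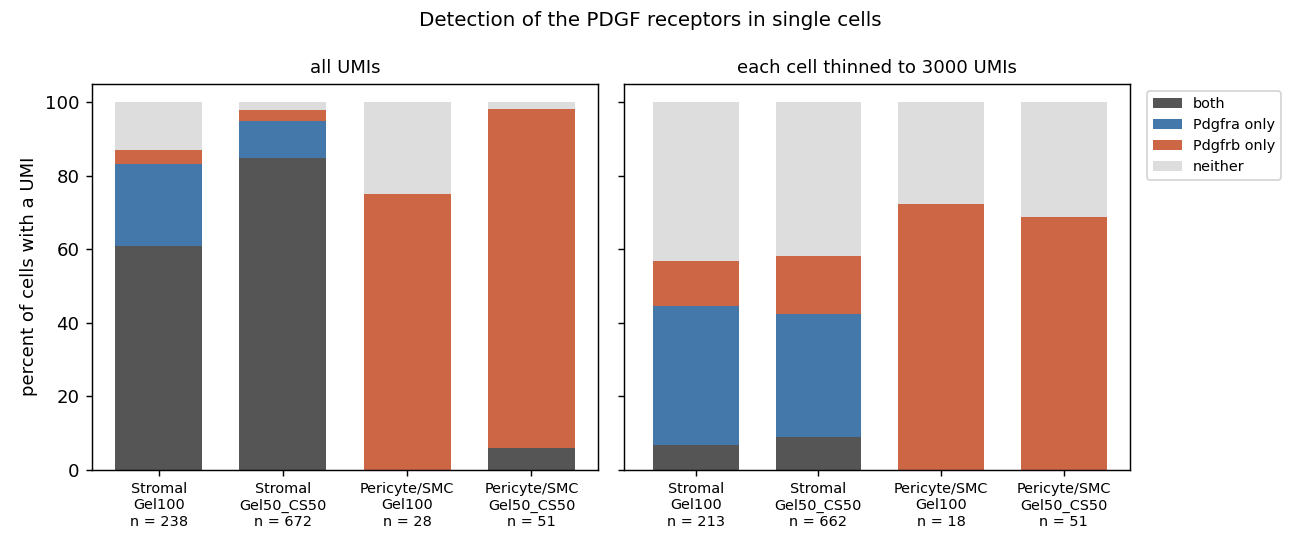
Percent of stromal cells and of pericytes and smooth muscle cells with a UMI of both receptors, of Pdgfra only, of Pdgfrb only or of neither, per library, with all UMIs (left) and with each cell thinned to 3000 UMIs (right). Both receptors are found in 60.9% and 84.7% of stromal cells with all UMIs and in 6.57% and 8.91% after thinning, and pericytes show Pdgfrb with little or no Pdgfra.

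The stromal class consisted almost wholly of 2 clusters that differed in all 4 of the members it expressed. Cluster 15 (105 and 342 cells) was led by Itgbl1, Epha3 and Eln, the gene of elastin, and cluster 16 (112 and 314 cells) by Tnfaip6, Sema3c and Clec3b. Pdgfrb stood at 122 and 147 CPM in cluster 15 and at 30.9 and 48.0 CPM in cluster 16. Pdgfa also stood higher in cluster 15, at 59.6 and 60.3 CPM against 22.9 and 19.1 CPM. Pdgfra went the other way, with 169 and 162 CPM in cluster 15 and 253 and 325 CPM in cluster 16. Pdgfra made up 58.0% and 52.3% of the receptor UMIs in cluster 15 and 89.1% and 87.1% in cluster 16. The order of the clusters was the same in both libraries for these 3 genes and outside the Poisson intervals. Pdgfd, the gene of the PDGFRβ ligand PDGF-D, stood at 21.0 and 33.6 CPM in cluster 15 and at 136 and 156 CPM in cluster 16.

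Pdgfc was the member whose order differed between the libraries. In Gel100 it was lower in cluster 15 (176 CPM) than in cluster 16 (253 CPM), and in Gel50_CS50 it was higher in cluster 15 (196 CPM) than in cluster 16 (174 CPM). As a log2 ratio (Gel50_CS50 over Gel100) this was 0.16 (0.05 to 0.27) in cluster 15 and −0.54 (−0.63 to −0.45) in cluster 16.

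The ligands varied widely among the macrophage clusters. Pdgfc was highest in cluster 2 (392 and 698 cells), led by Apoe, Selenop and Gas6, at 89.4 and 124 CPM. It was next highest in cluster 3 (449 and 476 cells), led by Cd5l, Hal and Ltc4s, at 65.6 and 83.5 CPM. Cluster 14 (243 and 288 cells) shared its leading genes C1qa, C1qb and C1qc with cluster 1 (667 and 442 cells). In cluster 14 Pdgfc came next, at 42.6 and 75.8 CPM. It was near 0 in cluster 6 (444 and 389 cells; F10, Vcan and Cxcl10), at 1.19 and 0.691 CPM, and in cluster 13 (192 and 367 cells; Saa3 and F10), at 2.26 and 1.54 CPM. Cluster 2 alone held 31.8% and 53.2% of the macrophage Pdgfc UMIs, although it was 10.2% and 18.9% of the class.

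Pdgfb followed another order. It stood at 77.8 and 50.5 CPM in cluster 3, at 57.3 and 63.3 CPM in cluster 10 (39 and 674 cells; Stfa3 and Arg1, the gene of arginase-1), and at 13.2 and 6.39 CPM in cluster 6. Cluster 44 (56 and 26 cells), led by Pparg, Olr1 and Ccl24, was also high in Pdgfb. Among the 11 clusters with at least 20 cells in each library, the highest Pdgfb was 77.8 CPM in Gel100 and 70.9 CPM in Gel50_CS50. The Gel50_CS50 maximum lay in neither cluster 3 nor cluster 10. In cluster 10, with high Pdgfb, Pdgfc was 15.9 and 8.98 CPM. Pdgfa was highest in cluster 2 among the 11 clusters with at least 20 cells in each library, at 26.8 and 21.2 CPM. Clusters 0 (1154 and 140 cells; Gm15056, Ccl5 and Ly6i) and 10 lay mostly in 1 library each, so their values cannot be told apart from that library.

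**Figure D3:**
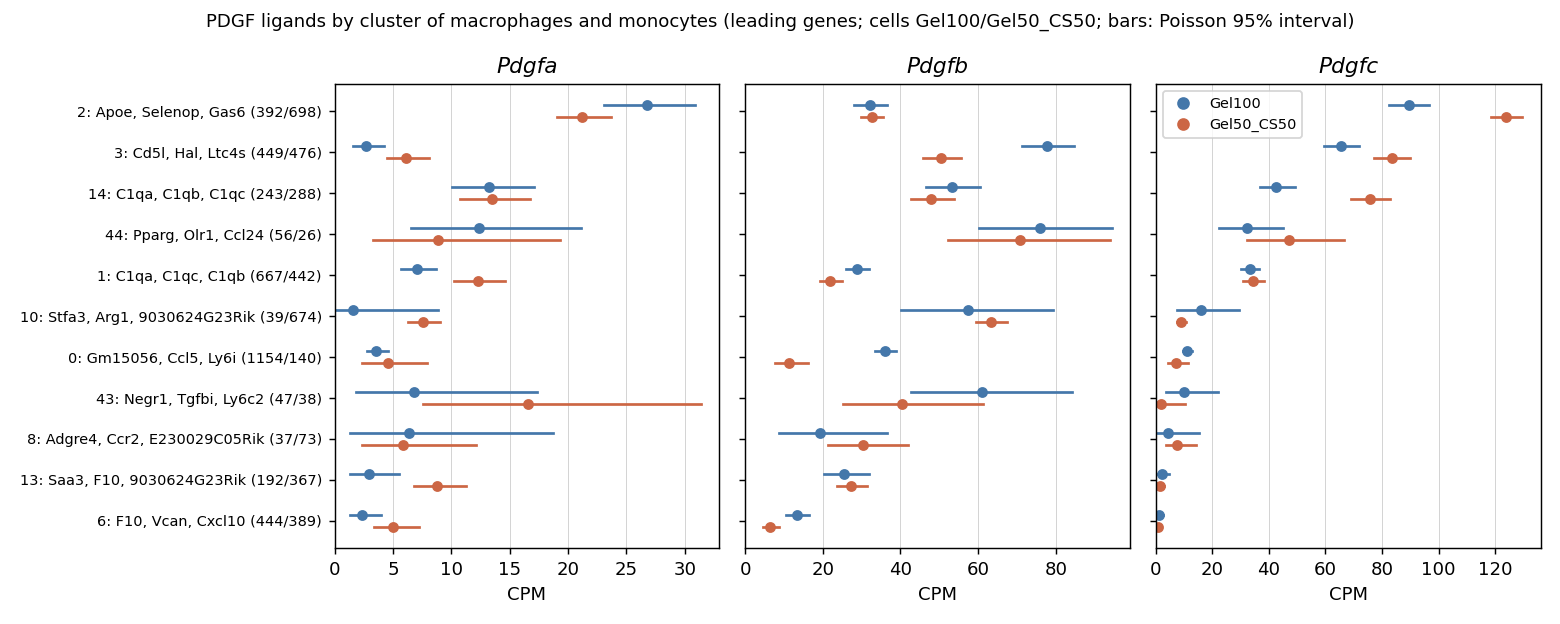
Level (CPM) of Pdgfa, Pdgfb and Pdgfc in the 11 clusters of macrophages and monocytes with at least 20 cells in each library, named by 3 leading genes, with Poisson 95% intervals. Pdgfc ranges from 1.19 to 89.4 CPM in Gel100 and from 0.691 to 124 CPM in Gel50_CS50, and clusters high in Pdgfb (3, 10 and 44) are not those highest in Pdgfa.

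The comparison of the scaffolds asked whether PDGF genes differed within a cell class. A gene was read where its mean was at least 20 CPM, and it was called where the 95% interval of the ratio lay wholly beyond 1.5-fold. By this rule 0 of 4 measured members were called in stromal cells, where 2.57% of 6976 genes were, and 0 of 2 in macrophages, where 5.95% of 6113 genes were. In pericytes 0 of 4 were called (5.02% of all measured genes) and in endothelial cells 0 of 3 (3.99%). In T and NK cells, plasmacytoid dendritic cells, conventional dendritic cells and neutrophils no member reached 20 CPM (all measured genes: 1.71%, 1.55%, 3.02% and 12.6%). A member that was not called is not thereby shown to be alike in both scaffolds.

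In stromal cells the log2 ratio of Gel50_CS50 over Gel100 was 0.44 (0.33 to 0.56) for Pdgfrb, 0.18 (0.12 to 0.25) for Pdgfra, 0.02 (−0.14 to 0.18) for Pdgfa and −0.24 (−0.31 to −0.17) for Pdgfc. The middle 95% of all measured stromal genes ran from −0.57 to 0.44, so Pdgfrb lay at its upper edge. The Pdgfrb ratio was above 0 in both stromal clusters, at 0.27 (0.14 to 0.40) in cluster 15 and 0.64 (0.41 to 0.87) in cluster 16. For Pdgfra it was 0.36 (0.28 to 0.44) in cluster 16 and −0.06 (−0.17 to 0.05) in cluster 15, and the difference between the clusters was not tested. Pdgfc depended on how cells were weighted: the ratio was −0.02 with each stromal cell weighted equally and 0.14 at 3000 UMIs per cell. Pdgfa did so too, with 0.27 and 0.63 under the same settings and −0.26 in cluster 16.

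In pericytes Pdgfa had a log2 ratio of −0.51 (−0.79 to −0.23) and Pdgfrb one of 0.21 (0.01 to 0.43). In endothelial cells Pdgfb had −0.60 (−0.97 to −0.22). Endothelial Pdgfa (10 and 64 UMIs) and Pdgfc (6 and 46 UMIs) went the other way. Their log2 ratios were 1.17 (0.20 to 2.30) and 1.43 (0.20 to 2.95). In the pericyte class the pericyte markers summed to 11817 and 7897 CPM and the stromal markers to 5960 and 14842 CPM, and their part was not tested. In Gel100 the 10 pericytes richest in Pdgfa held 87.8% of its UMIs in that class, and the 10 endothelial cells richest in Pdgfb held 90.4%. With cells classed one by one the pericyte Pdgfa ratio was −0.06 and the endothelial Pdgfb ratio 0.23. The size of the first and the direction of the second therefore depended on how these few cells were classed.

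In macrophages and monocytes Pdgfc had a log2 ratio of 0.61 (0.53 to 0.69), a 1.52-fold higher level in Gel50_CS50. The call turned on cluster 10, which was 39 Gel100 and 674 Gel50_CS50 cells and low in Pdgfc. Without cluster 10 the log2 ratio was 0.88 (0.80 to 0.96), past 1.5-fold, and 7 of 8 other ways of classing cells, each of which kept at most 449 of its 713 cells in the class, also gave values past it (0.71 to 0.89). With the clusters given the same shares in both libraries the ratio was 0.33. Cluster by cluster, the interval lay above 0 in 3 of 11 clusters (2, 3 and 14) and below 0 in none. Summed stromal markers in macrophages moved the same way (93.9 and 190 CPM), at the small share of the stromal level given above. The part of stromal RNA in the Pdgfc ratio was not tested.

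Pdgfb in macrophages had a log2 ratio of −0.01 (−0.09 to 0.07) over the whole class. Within clusters the interval lay below 0 in 4 of 11 (0, 1, 3 and 6), with ratios of −1.66, −0.39, −0.62 and −1.05, and above 0 in none. With equal cluster shares the ratio was −0.38, and without cluster 10 it was −0.28 (−0.37 to −0.19). Cluster 10 held 34.7% of the macrophage Pdgfb UMIs in Gel50_CS50 and 1.51% in Gel100.

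**Figure D4:**
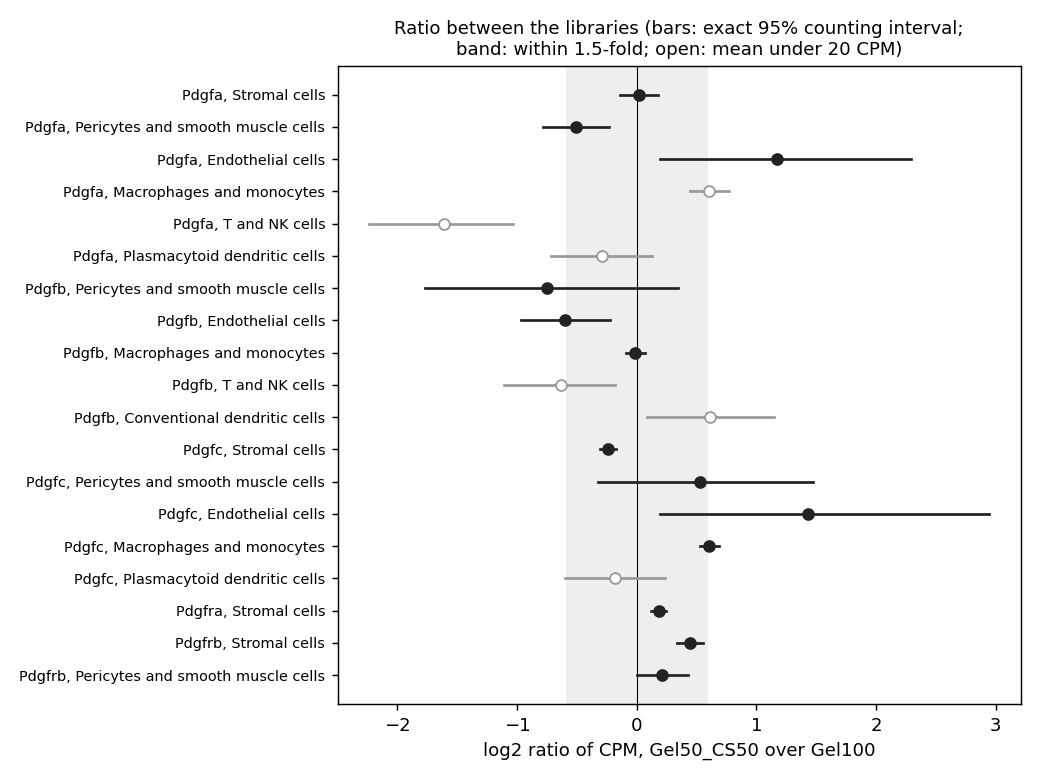
Log2 ratio of CPM, Gel50_CS50 over Gel100, for each member in the classes where its mean reached 5 CPM, with its exact 95% counting interval; the grey band is 1.5-fold and open points have a mean under 20 CPM. Among the filled points none has an interval wholly outside the band, and macrophage Pdgfc (0.61) lies at its edge. Endothelial Pdgfa (1.17), Pdgfc (1.43) and Pdgfb (−0.60) and pericyte Pdgfb (−0.75) lie beyond the band, with intervals that reach into it.

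Below 20 CPM, Pdgfa had a log2 ratio of 0.61 (0.45 to 0.77) in macrophages (0.32 with equal cluster shares and 1.13 at 3000 UMIs per cell) and of −1.61 (−2.24 to −1.04) in T and NK cells. In the latter class it lay almost wholly in NK cells, cytotoxic lymphocytes of the innate immune system. The NK cluster (657 and 240 cells) held 157 of the 163 Pdgfa UMIs of the class in Gel100 and 27 of 29 in Gel50_CS50, at 22.5 CPM (19.1 to 26.3) and 9.15 CPM (6.03 to 13.3). The UMIs were concentrated in few cells: 61 of 657 and 16 of 240 NK cells had any, 1 Gel100 cell held 18, and the richest 10 cells held 48.4% and 77.8%. At 3000 UMIs per cell 4.82% (3.14 to 7.03) and 2.60% (0.96 to 5.57) of NK cells had a UMI, and these intervals overlap. The rest of the class, mostly T cells, had 6 and 2 UMIs of Pdgfa. Pdgfb in the NK cluster stood at 19.9 and 15.6 CPM, and in the rest of the class at 5.06 and 3.23 CPM.

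The share of macrophages with a UMI depended on depth, which was greater in Gel50_CS50. At 3000 UMIs per cell the share stayed higher in Gel50_CS50 for Pdgfc and Pdgfa but not for Pdgfb. Pdgfb was found in 28.7% and 33.4% of macrophages and monocytes with all UMIs and in 9.82% and 9.30% at 3000 UMIs per cell. Pdgfc was found in 14.9% and 23.8% with all UMIs and in 5.89% and 10.2% at 3000. Pdgfa was found in 6.88% and 14.6% with all UMIs and in 1.46% and 3.43% at 3000. Neutrophils, at 3000 UMIs per cell, had Pdgfb in 1.48% and 0.380% of cells and Pdgfc in 0% and 0.474%. Cells with both Pdgfb and Pdgfc were 5.55% and 9.38% of the class with all UMIs and 0.833% and 0.850% at 3000.

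The ligand Pdgfc and its receptor gene Pdgfra were read in the same stromal cells. Both were found in 73.1% and 84.4% of stromal cells with all UMIs and in 14.6% and 14.5% at 3000 UMIs per cell. With all UMIs Pdgfc was found in 87.9% and 88.9% of cells with Pdgfra and in 32.5% and 64.7% of cells without it. At 3000 UMIs per cell these shares were 32.6% and 34.3% with Pdgfra and 34.7% and 40.3% without it. The share thus stood higher in cells with the receptor only with all UMIs, where cells differ in depth. The part of depth was not tested.

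Over whole libraries the 2 receptors differed more between the scaffolds than within stromal cells. Pdgfra stood at 22.8 and 64.6 CPM, Pdgfrb at 10.5 and 33.0 CPM, Pdgfc at 43.7 and 75.8 CPM and Pdgfa at 13.9 and 21.2 CPM, whereas Pdgfb stood at 27.3 and 24.1 CPM. Stromal cells were 3.14% of Gel100 and 9.33% of Gel50_CS50 cells, and pericytes 0.370% and 0.708%. The sort of viable cells and the loading can set such shares, and their part was not tested.

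Of the 4 lists of partner genes, 1 gene in 1 class was called by the same rule. That rule called 2.57% of all measured genes in stromal cells and 5.95% in macrophages. Pdgfd was highest in endothelial cells (492 and 403 CPM) and then in stromal cells (84.2 and 94.6 CPM), and it was 0.112 and 0.304 CPM in macrophages. Of the ligand-handling genes (Pdgfd, proteases, SPARC, co-receptors), 8 of 9 were measured in stromal cells and 5 of 9 in macrophages, with 0 called in either and median log2 ratios of 0.02 and 0.21, beside −0.02 and −0.01 over all measured genes. Receptor-proximal signalling genes had 24 and 22 of 27 measured and 0 called, with medians of −0.08 and 0.01. Early response genes had 9 and 7 of 10 measured and 0 called, with medians of −0.17 and 0.29.

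Brakes on the receptors had 10 of 13 measured in each class. The 1 gene called was Spry2 in stromal cells, an inhibitor of signalling below receptor tyrosine kinases. It was lower in Gel50_CS50 at 20.03 CPM against 34.3 CPM (log2 ratio −0.78, −0.96 to −0.59). Its interval ended close to the 1.5-fold limit, and 2.57% of all measured stromal genes were called. The median of this list was 0.06 in stromal cells and 0.02 in macrophages.

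Genes with the most similar pattern were ranked by Pearson correlation of log2(CPM + 1) over 14 sums (7 classes in each of 2 libraries), among 7073 genes. For Pdgfra they were Osr1, Dpt, Aqp1, Sema3a and Ptgis (r from 0.986 to 0.993), and for Pdgfrb Nr2f1, Col4a1, Pcdh18, Wtip and Nes (r = 0.994). For Pdgfc they were Psd3, Clmp, Rassf8, Emilin1 and Klhl9 (0.944 to 0.977). For Pdgfb they were Tln1, Pparg, Ppp1r12c, Rab11b and Ednrb (0.849 to 0.940), and for Pdgfa Pdlim1, Cul1, Gm15261, Ap3m1 and Pde5a (0.935 to 0.961). The 14 sums share libraries and classes and are not independent, and endothelial cells were too few to enter.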

How the data were processed

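The deposited matrices hold whole-number UMI counts per gene and barcode, not normalized by the authors; per the file headers they were written by Cell Ranger 6.0.2, and the submitters' processing notes name mm10. The sources used here name no annotation release. The libraries held 7845 and 7515 barcodes with 108847835 and 150311308 UMIs (Gel100 first). Barcodes with under 500 UMIs, under 200 genes or over 20% mitochondrial counts were dropped (65 and 117), as were Scrublet doublets (210 and 192; scanpy 1.11.5).

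The 3000 most variable genes, without the members and mitochondrial genes, gave 30 principal components and Leiden clusters (15 neighbours, resolution 1.0; leidenalg 0.10.2), which were named by marker score. Mixed clusters were split once. The thresholds for splitting and naming were set after the data were seen, and clusters that were shallow or had mixed markers stayed unnamed (16.9% and 7.04% of cells). The largest was 624 cells (361 and 263) led by Cxcl10, Rsad2 and Gbp5. Its markers were those of neutrophils (score 5.72, next class 0.909). It stayed unnamed because it was shallow for its libraries and had no neutrophil marker among its 10 leading genes. The neutrophil class leaves these cells out. Classes with under 15 cells in a library were not read.

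Counts were summed per class and library and given as CPM with exact Poisson intervals. Ratios have exact conditional binomial 95% intervals, and shares have Clopper-Pearson intervals. Cells are not replicates, so no p-value was computed. The ratio rule was tested on simulated data that held Poisson counting error only. That test therefore cannot show how the rule fares with variation between cells or animals. UMI counts from the 3′ end are not comparable between genes. Named were the 5 members, Pdgfd, up to 6 called genes per pathway list in stromal cells or macrophages, and the 5 genes most like each member. The members, markers and lists were chosen with earlier results of these data known. Coordinates came from GENCODE vM21. Alternatives covered the clustering, doublets, depth, mitochondrial limit, weighting, scaling and CPM limit. Tools also included matplotlib 3.10.9, scipy 1.17.1, pandas 2.3.3, numpy 2.4.6 and Python 3.11.15.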

Additional observations from a re-analysis of the deposited data

Results flagged for a closer look

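Pdgfa went in opposite directions in 2 classes: its log2 ratio of Gel50_CS50 over Gel100 was 0.61 in macrophages and monocytes and −1.61 in T and NK cells. Both levels were under 20 CPM, and the difference between the classes was not tested.

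Pdgfc went in opposite directions in the 2 stromal clusters, with a log2 ratio of 0.16 in cluster 15 and −0.54 in cluster 16. This difference was not tested either.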

How the results depend on the processing

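No paired analysis was possible because each scaffold has 1 library. Of 189 alternative log2 ratios, 143 stayed within the counting interval of the reported value, 42 moved outside it without reversing a ratio whose interval excluded 0, and 4 reversed such a ratio. Macrophage Pdgfc was 0.84 at resolution 2.0, 0.89 with 50 principal components, 0.71 with cells classed one by one, 0.84 with each library clustered alone, 0.84 with doublets kept, 0.85 with at least 3000 UMIs, 0.89 with under 10% mitochondrial counts, 0.85 thinned and 0.33 with equal cluster shares. In the same order macrophage Pdgfb was −0.26, −0.30, −0.16, −0.25, −0.25, −0.30 and −0.23, then −0.38 with equal cluster shares and −0.27 without clusters mostly of 1 library, chosen after seeing the data as were the single clusters below. Stromal Pdgfra was 0.27 with cells weighted equally, 0.074 thinned, −0.061 in cluster 15 and 0.36 in cluster 16. Stromal Pdgfrb was 0.56 with cells classed one by one, 0.20 with cells weighted equally, 0.27 in cluster 15 and 0.64 in cluster 16. Besides Pdgfra in cluster 15, the reversals were of stromal Pdgfc thinned (0.14) and in cluster 15 (0.16), and of endothelial Pdgfb with cells classed one by one (0.23). Ratios whose interval held 0 also took either sign: stromal Pdgfa ran from −0.26 in cluster 16 to 0.63 thinned, plasmacytoid Pdgfc (−0.18) from −1.06 thinned to 0.18 with doublets kept, and macrophage Pdgfb reached 0.0011 with median scaling. Macrophage Pdgfa ran from 0.32 to 1.13. Beyond the part of cluster 10, the cause was not tested. Without the CPM limit 679 stromal and 1124 macrophage genes were past 1.5-fold, against 179 and 364, and with a limit of 50 CPM 116 and 239. For T and NK cells (111), plasmacytoid (96) and conventional (177) dendritic cells these counts were 362, 327 and 497 without the limit, 60, 57 and 109 at 50 CPM, and 234, 201 and 421 by the point ratio alone. For neutrophils (530) they were 827 without the limit and 1309 by the point ratio. These counts were not run for pericytes and endothelial cells, nor equal cluster shares for classes with at most 1 cluster of enough cells (pericytes, endothelial and plasmacytoid dendritic cells). Scaling by the median gene or a trimmed mean moved stromal and macrophage ratios by at most 0.02. Depth limits the classes of few cells: 3 counts of a gene are 6.22 CPM in Gel100 pericytes and 7.24 CPM in Gel100 endothelial cells.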

Other observations

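Plasmacytoid dendritic cells held Pdgfa and Pdgfc but hardly any Pdgfb. Pdgfa was found in 19.2% and 21.2% of them (Gel100 first; 143 and 73 UMIs), Pdgfc in 10.4% and 10.8% (138 and 76 UMIs), and Pdgfb in 1.04% and 0.769% (5 and 3 UMIs). The 10 cells richest in Pdgfc held 56.5% and 69.7% of its UMIs in this class. Conventional dendritic cells showed the reverse, with Pdgfb in 13.3% and 16.01% of cells and Pdgfc in 0.885% and 2.49%. The median depths of these classes were 17476 and 18062 UMIs, and 17398 and 19586 UMIs.

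The 2 endothelial clusters differed in Pdgfb in Gel50_CS50 only as values of few cells. Cluster 50, led by Fabp4, Ldb2 and Cdh13, stood at 219 CPM (12 cells) and 237 CPM (22 cells). Cluster 51, led by Selp and Sele, stood at 261 CPM (5 cells) and 85.6 CPM (25 cells).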
